A study of Homo sapiens with 18 samples.

Results

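Forkhead-domain mutants of FOXA1 were set against FOXA1 proteins with an intact forkhead domain in LNCaP prostate cancer cells given androgen. The comparison used 6 of the 18 arrays of the series. Its members were chosen by construct and treatment, with earlier results of these data known. Arrays of the mutants D226N, M253K and F266S formed the forkhead-mutant class. Arrays of wild-type FOXA1 (WT), G87R and L388M formed the other class, called the WT set here. All 6 lines carried the hairpin shFOXA1 against the endogenous gene and an introduced FOXA1 of the type named. The cells had spent 3 days in medium with 5% charcoal-stripped serum before 24 hours with 1 nM R1881, a synthetic androgen. Each construct was arrayed once with R1881, so the 3 constructs of a class served as its replicates. They are different proteins, and no source used here says that the arrays came from separate cultures, so p-values measure only the spread between these arrays, part of which may be technical. LNCaP is an androgen-responsive line of luminal type, derived from a prostate cancer metastasis. Whether each introduced construct was carried by a clone or a pool of cells is not given in the sources used here.

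FOXA1 is a pioneer factor: its forkhead domain binds DNA in compacted chromatin and opens it for hormone receptors and other factors. In the luminal cells of the prostate it takes part in the androgen response of genes such as KLK3. D226N, M253K and F266S change residues inside the forkhead domain, whereas G87R and L388M lie outside it. FOXA1 is recurrently mutated in prostate cancer, with many of the changes in that domain.

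The arrays were of similar quality in both classes. Mean raw signal was 243 to 288.3 in the forkhead mutants and 259.1 to 271.8 in the WT set, and 16446 to 17148 against 15922 to 17015 probes were detected. The 10 LNCaP markers measured, among them KLK3, HOXB13 and EPCAM, were all detected on all 6 arrays. Of 11 leukocyte, endothelial and fibroblast markers with a probe, 7 were detected on no array, among them PTPRC and PECAM1, and only VWF was detected on all 6. Of 3 basal markers with a probe, none was detected on all 6 arrays. The FOXA1 probe read 10.74, 10.83 and 11.02 log2 units with D226N, M253K and F266S, against 10.68, 10.61 and 10.72 with WT, G87R and L388M (difference 0.19 ± 0.10 SE, limma adjusted p = 0.282). The same probe read 11.07 in hairpin cells with GFP and 11.73 in control-vector cells with GFP. Which part of the transcript it reads, and whether it reads the introduced copies, is not known, so it does not check the amount of each construct.

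With R1881, 1002 of 10228 genes differed between the classes at a limma adjusted p under 0.05 (9.80%), 497 higher in the forkhead mutants (4.86%) and 505 lower (4.94%). Of these, 331 were at least 1.5-fold higher (3.24%) and 235 at least 1.5-fold lower (2.30%). The 12 largest increases were of AKR1C2, SERPINB7, AKR1C4, MMP10, LXN, UGT1A6, UGT2B28, PI3, UGT2B10, KRT16P2, DEFB4A and CXCL8. The 12 largest decreases were of COXFA4L2, PEG3, NAALAD2, TFF1, OR51E1, HBQ1, KLK3, ACP3, OR51E2, ANKRD37, PFKFB4 and SLC41A1. In every one of the 1002 genes the 3 arrays of one class lay beyond the 3 of the other, which was also so for 3494 genes of all tested (14.7% higher and 19.5% lower). A median gene had an SD of 0.147 log2 units among the forkhead mutants and 0.109 in the WT set, and the median standard error of the difference was 0.117. An exact permutation test of 3 arrays against 3 could not go below p = 0.1, so the calls rest on the limma fit across all genes. The number of calls depended on single arrays. Without D226N it was 1499, but it was 575 without M253K, 388 without L388M, 137 without F266S, 75 without G87R and 62 without WT. Counts of list members in these fits, given below, are to be read beside these totals over all genes. A core of 57 genes (39 higher and 18 lower) was called with all 6 arrays and in each fit that left out 1 of them.

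**Figure D1:**
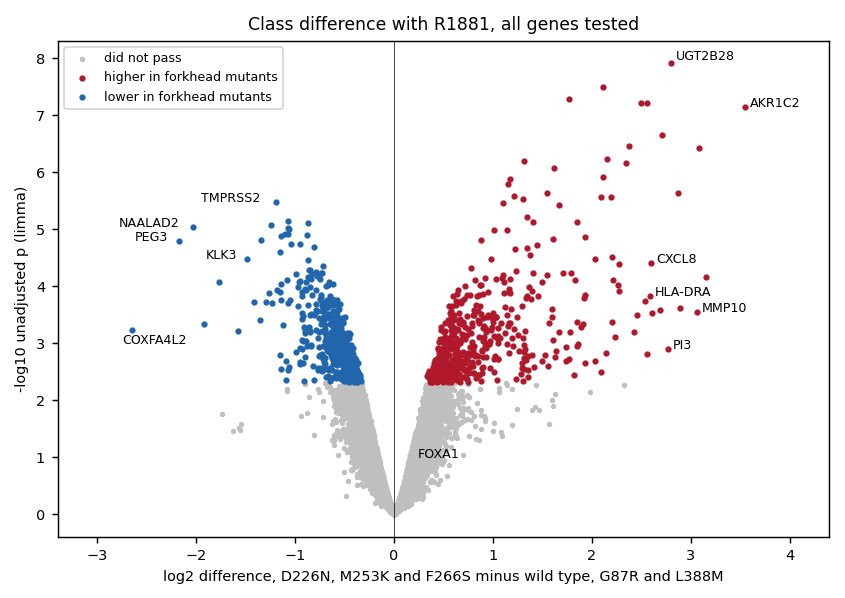
Difference between the forkhead mutants and the WT set with R1881 (x axis, log2 units) against the negative log10 of the unadjusted limma p (y axis), 1 point per gene for 10228 genes. The 497 genes called higher lie on the right and the 505 called lower on the left, and AKR1C2 at 3.55 is the farthest to the right among them.

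**Figure D2:**
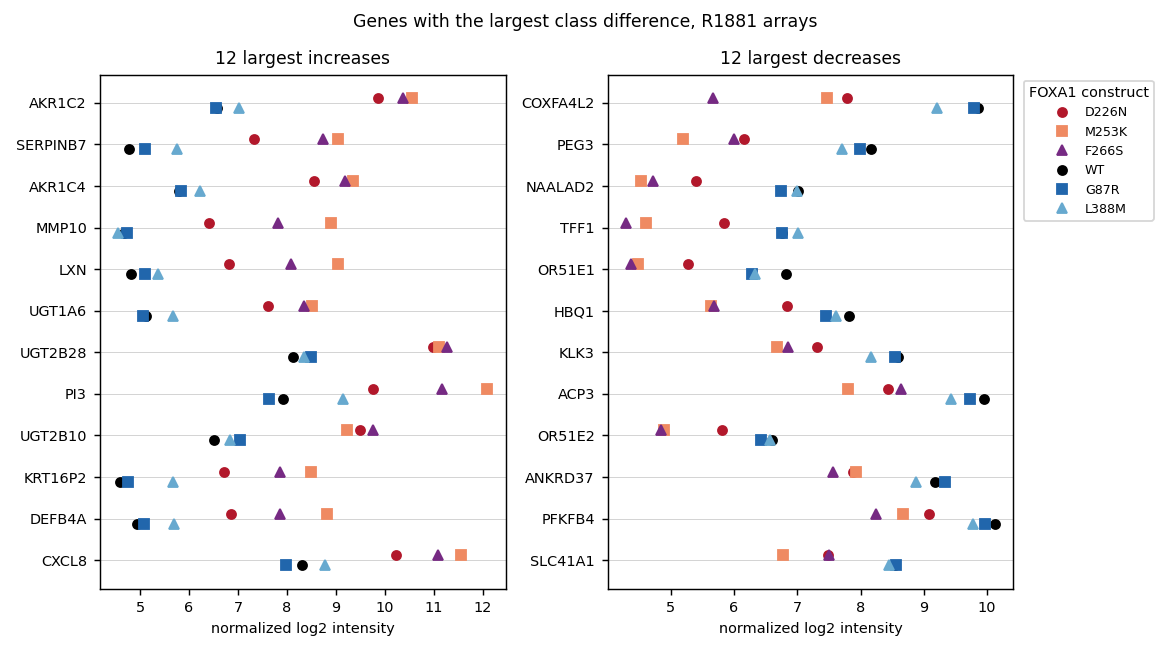
Normalised log2 intensity of the genes with the largest differences, 1 point per array for the 3 forkhead mutants and the 3 arrays of the WT set. In every gene shown the arrays of the classes do not overlap, and D226N is often the forkhead mutant nearest to the WT set.

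Genes for androgen conjugation and steroid reduction rose together and included the largest increase of all. Of 18 measured members of this list, 11 rose (61.1%, against 4.86% of all genes) and 0 fell, with a median difference of 1.25 log2 units against -0.02 over all genes tested. The UGT2B enzymes attach glucuronic acid to androgens and make them soluble and inactive. UGT2B15 read 10.93, 10.91 and 10.91 with D226N, M253K and F266S, against 8.11, 8.66 and 8.30 with WT, G87R and L388M. The 3 mutants were almost level, and every one stood more than 2 log2 units above the brightest array of the WT set. The difference was 2.56 ± 0.14 (5.9-fold, limma adjusted p = 0.000124). UGT2B17, the other main enzyme that conjugates testosterone and dihydrotestosterone, read 12.28, 11.79 and 12.37 against 9.71, 10.05 and 9.63 in the same order of constructs, 5.08-fold higher. UGT2B28 read 10.99, 11.10 and 11.26 against 8.12, 8.49 and 8.35, which is 2.79 ± 0.13 higher. UGT2B10 and UGT2B11 rose by 2.70 ± 0.17 and 2.50 ± 0.14. UGT1A6, of the related family that conjugates phenols, read 7.62, 8.51 and 8.35 against 5.13, 5.05 and 5.67 (2.87 ± 0.25), and another of its probes gave 0.52.

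AKR1C2, a reductase that turns dihydrotestosterone into a weaker steroid, had the largest increase of all called genes. It read 9.86, 10.55 and 10.38 with D226N, M253K and F266S, against 6.57, 6.54 and 7.02 with WT, G87R and L388M. The forkhead mutants averaged 10.26 ± 0.36 and the WT set 6.71 ± 0.27 (SD, n = 3 each), an 11.7-fold difference (3.55 ± 0.20, limma adjusted p = 0.000124). AKR1C4, a liver-type member of the same reductase family, read 8.55, 9.36 and 9.19 against 5.80, 5.84 and 6.21, 8.46-fold higher. All 8 UGT and AKR1C genes named here kept their call without any one array. The list count was 12 without D226N, 8 without WT and 9 without G87R. Members that did not pass included SRD5A1, the enzyme that makes dihydrotestosterone, at 0.43 (limma adjusted p = 0.0749). A probe can also capture RNA of a near-identical gene, so which UGT2B, UGT1A or AKR1C member each value belongs to is uncertain.

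UGT2B15 is shown with its promoter because a forkhead motif and a partial androgen receptor motif lie close together in it. The window covers 250 bases before the gene's start and 50 after it, as RefSeq gives it on GRCh38.p14. Capitals mark the forkhead motif TGTTTAC, here on the reverse strand, and AGAACA, which is only part of a full androgen response element. The full element, as searched below for KLK3 and KLK2, was not found in this window.
UGT2B15, chr4:68670603-68670902, minus strand: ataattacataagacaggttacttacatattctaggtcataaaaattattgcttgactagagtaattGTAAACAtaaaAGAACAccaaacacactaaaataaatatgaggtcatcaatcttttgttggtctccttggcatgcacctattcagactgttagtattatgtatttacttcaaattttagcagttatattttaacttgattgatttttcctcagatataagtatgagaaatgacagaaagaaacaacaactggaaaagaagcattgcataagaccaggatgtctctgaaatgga
The forkhead motif starts 183 bases and the partial androgen receptor motif 172 bases before the gene's start. On either strand, TGTTTAC was present in the promoter windows of 3.02% of the 397 higher genes with a window, 3.05% of the 393 lower genes and 2.27% of all 8343 tested genes with one. AGAACA was present in 11.6% of the higher genes, 8.65% of the lower genes and 8.77% of all tested genes, and in 14.9% of all 27305 windows. A match describes letters in a window and shows no binding.

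Of 39 measured androgen-induced genes, 15 fell (38.5%, against 4.94% of all genes) and 2 rose in the forkhead mutants, with a median of -0.27, and 22 did not pass. KLK3, which encodes prostate-specific antigen, read 7.31, 6.68 and 6.86 with D226N, M253K and F266S, against 8.60, 8.54 and 8.16 with WT, G87R and L388M. Every forkhead mutant lay below the whole WT set, by 1.48 ± 0.18 on average (2.79-fold lower, limma adjusted p = 0.00604). KLK2, the neighbouring kallikrein protease, read 7.66, 7.33 and 7.30 against 8.60, 8.53 and 8.48, 2.15-fold lower. TMPRSS2, a surface protease whose promoter is often fused to ERG in prostate cancer, read 11.04, 10.82 and 10.80 against 12.16, 12.14 and 11.96 (-1.20 ± 0.11, limma adjusted p = 0.00147). SLC45A3, a prostate membrane transporter, read 10.20, 9.37 and 9.97 against 11.15, 11.11 and 10.98, 2.35-fold lower. FKBP5, a co-chaperone of steroid receptors, read 10.82, 10.69 and 10.73 against 11.34, 11.10 and 11.44, a smaller decrease (-0.54 ± 0.11, limma adjusted p = 0.0261) that passed in only 1 of the 6 fits with an array left out, the one without D226N.

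The share of the androgen-induced list that rose (5.13%) was close to the 4.86% of all genes. These 2 members were HPGD, which degrades prostaglandins, and UAP1, which makes an activated amino sugar. HPGD read 6.66, 8.37 and 7.79 with the forkhead mutants, against 5.85, 5.90 and 5.87 in the WT set (1.74 ± 0.36, limma adjusted p = 0.0257). UAP1 differed by 0.58 (limma adjusted p = 0.0391), and neither was called without F266S, WT, G87R or L388M. The transcription factor SNAI2 (-0.33) and the receptor feedback gene PMEPA1 (-0.17) did not pass, nor did the kinase SGK1 (0.74, limma adjusted p = 0.0883). The count of members that fell was 8 without L388M, 7 without F266S, 3 without WT and 3 without G87R. Over all 10228 genes, 183, 60, 22 and 27 fell in the same fits, so the loss of calls was not particular to this list. KLK2, KLK3 and TMPRSS2 passed in all 6 of those fits, whereas SLC45A3 lost its call without F266S, WT or G87R. Of 21 measured androgen-repressed genes, 8 rose (38.1%, against 4.86% of all genes) and 4 fell (19%, against 4.94%). Of the 8 that rose 5 were UGT2B genes, and the 4 that fell were OPRK1, HES6, TNFRSF19 and PEG3. The list name does not hold for every member in these cells. In control-vector GFP cells HES6 read 11.59 with R1881 and 10.31 in ethanol (1 array each). UGT2B28 (6.85 and 6.36), UGT2B11 (8.24 and 8.08) and TNFRSF19 (10.41 and 10.26) were also not lower with R1881 there, whereas the other called members were. Without F266S, WT, G87R or L388M, 5 rose and 1 fell.

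KLK3 and KLK2 are shown as the pair of androgen targets with the full androgen response element in the promoter. It was searched as GNACA, any 4 bases and then GTNCT, on both strands and in the same 300-base windows. Capitals mark that element, together in KLK3 with the partial motif AGAACA, which starts 1 base before it and overlaps it.
KLK3, chr19:50854665-50854964, plus strand: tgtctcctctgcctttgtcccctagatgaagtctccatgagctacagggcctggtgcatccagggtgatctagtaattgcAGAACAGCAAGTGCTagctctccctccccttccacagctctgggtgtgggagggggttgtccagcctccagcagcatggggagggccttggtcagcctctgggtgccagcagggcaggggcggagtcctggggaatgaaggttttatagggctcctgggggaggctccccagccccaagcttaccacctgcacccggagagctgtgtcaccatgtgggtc
KLK2, chr19:50873189-50873488, plus strand: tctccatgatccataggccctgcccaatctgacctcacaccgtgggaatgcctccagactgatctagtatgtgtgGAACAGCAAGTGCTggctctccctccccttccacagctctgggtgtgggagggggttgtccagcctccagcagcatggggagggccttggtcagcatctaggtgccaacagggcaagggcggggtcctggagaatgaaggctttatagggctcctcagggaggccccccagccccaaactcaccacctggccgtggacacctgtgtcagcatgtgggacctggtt
The full element starts 169 bases before the start of KLK3 and 175 bases before that of KLK2, and the matched letters were identical in both. It was present in 5 of the 393 lower genes with a window (1.27%), in 0 of the 397 higher genes and in 41 of all 8343 tested genes with a window (0.491%). None of the printed kallikrein windows held the forkhead motif TGTTTAC.

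Of 25 measured luminal prostate genes, 11 fell (44%, against 4.94% of all genes), 1 rose and 13 did not pass, with a median of -0.34. The list shares KLK2, KLK3, TMPRSS2 and SLC45A3 with the androgen-induced list. NAALAD2, a peptidase related to prostate-specific membrane antigen, read 5.40, 4.53 and 4.72 with the forkhead mutants, against 7.01, 6.75 and 7.00 in the WT set. It was 4.09-fold lower (-2.03 ± 0.21, limma adjusted p = 0.00297) and was detected in 1 of the 3 mutants, so the size of the decrease rests in part on values at background. OR51E1 and OR51E2, olfactory-type receptors enriched in prostate, fell by 1.77 ± 0.25 and 1.36 ± 0.24, and each was likewise detected in 1 mutant only, with the same limit. OR51E1 read 5.28, 4.48 and 4.37 against 6.83, 6.28 and 6.33, with D226N the highest of the mutants. ACP3, the prostatic acid phosphatase, read 8.44, 7.80 and 8.63 against 9.95, 9.73 and 9.42, 2.66-fold lower. The member that rose was AGR2, a disulfide isomerase of secretory cells, by 0.88 (limma adjusted p = 0.00985). KRT8 (-0.40) and KRT18 (-0.25), the luminal keratins, and EPCAM (0.14) did not pass. The count that fell was 6 without F266S, 4 without WT and 5 without G87R. OR51E1 lost its call without WT, ACP3 without WT or G87R and OR51E2 without F266S, WT or G87R. In bulk RNA, fewer cells of a type and less RNA per cell cannot be told apart.

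Among genes that work with FOXA1, 10 were measured, 2 rose (20%, against 4.86% of all genes) and 3 fell (30%, against 4.94%). TLE1, a corepressor that FOXA1 can recruit, read 8.46, 8.76 and 8.58 with the forkhead mutants, against 7.48, 7.39 and 7.84 in the WT set (2.04-fold higher, limma adjusted p = 0.00918). NCOA1, a nuclear receptor coactivator, rose by 0.39. HOXB13, a homeobox factor of prostate cells, fell by 0.50 ± 0.13. GATA2, a zinc-finger factor, fell by 0.64 ± 0.12, and GRHL2, an epithelial factor, by 0.62 ± 0.11. None of the 5 was still called without WT or without G87R, 1 was without F266S, 2 were without L388M and 3 without M253K. PEG3, an imprinted zinc-finger gene, read 6.15, 5.19 and 6.00 against 8.17, 7.99 and 7.71, 4.52-fold lower. TFF1, a trefoil peptide and textbook target of the oestrogen receptor, read 5.84, 4.61 and 4.30 against 6.77, 6.75 and 7.00 (-1.93 ± 0.35). It was detected in 1 of the 3 mutants, so the other mutant values are at background and the size of the decrease is uncertain. HBQ1, a globin gene, read 6.83, 5.64 and 5.68 against 7.82, 7.45 and 7.61. SLC41A1, a magnesium transporter, read 7.49, 6.78 and 7.50 against 8.54, 8.56 and 8.45. D226N lay nearest to the WT set in TFF1 and HBQ1, which lost their calls without F266S, WT, G87R or L388M. SLC41A1 lost its call without WT or G87R, and PEG3 kept it in every such fit.

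Of 21 measured inflammatory and NF-kB genes, 15 rose (71.4%, against 4.86% of all genes) and 0 fell, with a median of 1.83 log2 units. CXCL8, the neutrophil-attracting chemokine interleukin 8, read 10.22, 11.56 and 11.10 with D226N, M253K and F266S, against 8.32, 7.99 and 8.77 with WT, G87R and L388M. The lowest mutant was more than 1 log2 unit above the highest array of the WT set (2.60 ± 0.33, 6.06-fold, limma adjusted p = 0.00691). PI3, the secreted elastase inhibitor elafin, read 9.75, 12.09 and 11.18 against 7.92, 7.64 and 9.14, a 6.83-fold difference with a wide spread (2.77 ± 0.58, limma adjusted p = 0.0262). LCN2, an iron-siderophore binding protein, read 11.13, 12.88 and 11.78 against 9.21, 9.16 and 10.04, 5.5-fold higher. CCL8, a monocyte chemokine, read 7.48, 9.31 and 7.83 against 5.52, 5.43 and 6.40. In all 4 genes M253K was the highest mutant, D226N the lowest, and L388M the highest of the WT set. TNF (1.93) and the NF-kB inhibitor NFKBIA (0.98) also rose, and SAA1 (2.32, limma adjusted p = 0.0533) and PTGS2 (1.14, limma adjusted p = 0.0531) did not pass. The count of members that rose was 5 without F266S, 4 without G87R and 3 without WT. CXCL8 lost its call without WT, CCL8 and LCN2 without F266S, WT or G87R, and PI3 without any of M253K, F266S, WT or G87R.

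The CXCL8 promoter is shown because it holds a textbook AP-1 motif, TGACTCA, marked in capitals.
CXCL8, chr4:73740319-73740618, plus strand: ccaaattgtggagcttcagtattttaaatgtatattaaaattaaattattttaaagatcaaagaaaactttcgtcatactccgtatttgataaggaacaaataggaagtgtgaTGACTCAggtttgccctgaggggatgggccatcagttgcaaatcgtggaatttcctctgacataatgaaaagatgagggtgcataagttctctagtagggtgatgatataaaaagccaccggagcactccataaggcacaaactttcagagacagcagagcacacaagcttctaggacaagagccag
The motif starts 137 bases before the gene's start. TGACTCA, on either strand, was present in 5.04% of higher genes with a window, 2.29% of lower genes and 2.64% of all tested genes. The NF-kB motif, searched as GGGANTTCC, was present in 3.78%, 2.04% and 2.4% of the same sets. These exact letters were not in the CXCL8 window. The window does hold the similar letters ggaatttcc, so the search does not show that an NF-kB site is absent. The printed sequences come from RefSeq, in which 63 of the 82 named genes had a window.

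Genes of mucosal secretion, proteases and matrix contact included several of the largest increases. Of 13 measured secretory genes, 6 rose (46.2%, against 4.86% of all genes) and 2 fell (15.4%, against 4.94%), the 2 being TFF1 and TFF3. AGR3, a relative of AGR2, read 7.99, 8.37 and 8.01 with the forkhead mutants, against 5.76, 5.90 and 6.24 in the WT set (4.45-fold, limma adjusted p = 0.000589), and kept its call without any one array. Another AGR3 probe gave a smaller difference, 0.73 log2 units. SCGB2A1, a secretoglobin, read 5.76, 8.22 and 7.79 against 4.77, 4.36 and 4.97. FCGBP, a mucus protein that binds antibody, read 10.65, 11.96 and 11.26 against 8.73, 8.78 and 9.55, 4.82-fold higher. DEFB4A, a beta-defensin, read 6.85, 8.82 and 7.87 against 4.94, 5.08 and 5.69. Of 15 measured adhesion, matrix and protease genes, 7 rose (46.7%) and 0 fell. SERPINB7, a serine protease inhibitor, read 7.32, 9.04 and 8.75 against 4.78, 5.09 and 5.76, 8.92-fold higher. MMP10, the stromelysin-type protease, read 6.41, 8.89 and 7.82 and was undetected on every array of the WT set (4.67, 4.72 and 4.55), so it was at least 7.13-fold higher. LXN, a carboxypeptidase inhibitor, read 6.82, 9.04 and 8.08 against 4.81, 5.10 and 5.36. LAMB3, a chain of the basement-membrane protein laminin, rose by 2.21 ± 0.31, and MMP7 by 1.82 ± 0.45. In the WT set SCGB2A1 was detected on 1 array and SERPINB7, LXN and LAMB3 on 2. The size of these 4 increases therefore rests in part on values at background.

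Again M253K was the highest mutant and D226N the lowest in SCGB2A1, FCGBP, DEFB4A, SERPINB7, MMP10 and LXN. A bound written as at least replaces each undetected value by the dimmest detected signal of that array wherever this is brighter. The secretory count that rose was 3 without F266S, 1 without WT and 1 without G87R, and that of the adhesion list was 3 without F266S and 0 without WT or without G87R. KRT16P2, a keratin 16 pseudogene whose probe may read its relatives, read 6.71, 8.50 and 7.87 against 4.59, 4.76 and 5.66. It was detected on 1 array of the WT set. DEFB4A, FCGBP, LXN, MMP10 and KRT16P2 lost their calls without F266S, WT or G87R, SERPINB7 and LAMB3 without WT or G87R, and SCGB2A1 in every fit but that without D226N. ACTA2, smooth muscle actin, read 9.02, 11.48 and 10.02 against 8.01, 7.91 and 8.31 (2.10 ± 0.51, limma adjusted p = 0.0405). It was the 1 member of 8 mesenchymal genes to pass (12.5%, against 4.86% of all genes). That call was lost without F266S, WT, G87R or L388M. ACTA2, LXN, MMP10, PI3 and SCGB2A1 had the widest ranges over the 3 mutants among the called genes named by size or list.

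Genes of antigen presentation were higher in part. Of 8 measured MHC class II genes 4 rose (50%, against 4.86% of all genes), HLA-DRA, CD74, HLA-DRB4 and HLA-DRB6. HLA-DRA, a chain of the molecule that presents antigen to helper T cells, read 8.33, 9.77 and 9.18 with the forkhead mutants, against 6.33, 6.01 and 7.19 in the WT set (6.01-fold, limma adjusted p = 0.0112). That is 2.59 log2 units, and another HLA-DRA probe gave 1.59. CD74, the invariant chain that guides those molecules, read 5.78, 7.29 and 6.62 against 4.96, 4.52 and 5.35, and was detected on 2 arrays of the WT set. HLA-DRB4 rose by 1.23 ± 0.32, but another of its probes gave -0.21, and which HLA-DR gene a probe reads is uncertain. Of 14 MHC class I and peptide-supply genes 3 rose (21.4%), the transporter TAP1 (0.65 ± 0.09), the immunoproteasome subunit PSMB10 (0.69 ± 0.12) and PSMB8, which was undetected in the WT set and at least 1.32-fold higher. Of 20 interferon-response genes 5 rose (25%). GBP2, a guanylate-binding GTPase, read 8.81, 10.28 and 9.46 against 7.21, 7.05 and 7.51, 4.79-fold higher, and the transcription factor IRF1 was 2.57-fold higher. GBP1 and IFI27, undetected in the WT set, were at least 2.14-fold and 1.64-fold higher, and CXCL10 rose by 0.64. HLA-DRB6 was also undetected in the WT set. Like PSMB8, GBP1 and IFI27, it passed the detection filter through the forkhead mutants alone. The list shares that count these genes are therefore partly set by that filter. The class II count was 1 without M253K, 1 without L388M and 0 without F266S, WT or G87R. The class I count was 6 without D226N, 2 without M253K, and 0 without F266S, WT or G87R. The interferon count was 3 without M253K, 2 without L388M, and 0 without F266S, WT or G87R.

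Markers of leukocytes were set beside these groups. In the longer list of leukocyte, endothelial and fibroblast genes, 4 passed the filter. Their summed level was 585 to 1203 in the forkhead mutants and 383.2 to 431 in the WT set. This sum is of signal before the log, so it mostly follows CD68, the brightest of the 4 on every array. The 2 that rose (50%, against 4.86% of all genes) were CD68 and ITGAM, both expressed by macrophages. CD68 read 8.60, 9.98 and 9.02 against 7.79, 7.72 and 8.16, and a dimmer probe of it gave 0.58. ITGAM read 5.40, 5.14 and 5.45 and was undetected in the WT set, at least 1.37-fold higher. It passed the detection filter through the forkhead mutants alone. CD14 (0.12) and VWF (0.24) did not pass. PTPRC, which all nucleated blood cells express, was detected on none of the 6 arrays, nor were CD3D, PECAM1, CDH5, DCN, LUM and PDGFRB. Both calls were lost without WT or G87R, and that of CD68 also without F266S or L388M. The part of such cells in the inflammatory and antigen-presentation results was not tested.

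**Figure D3:**
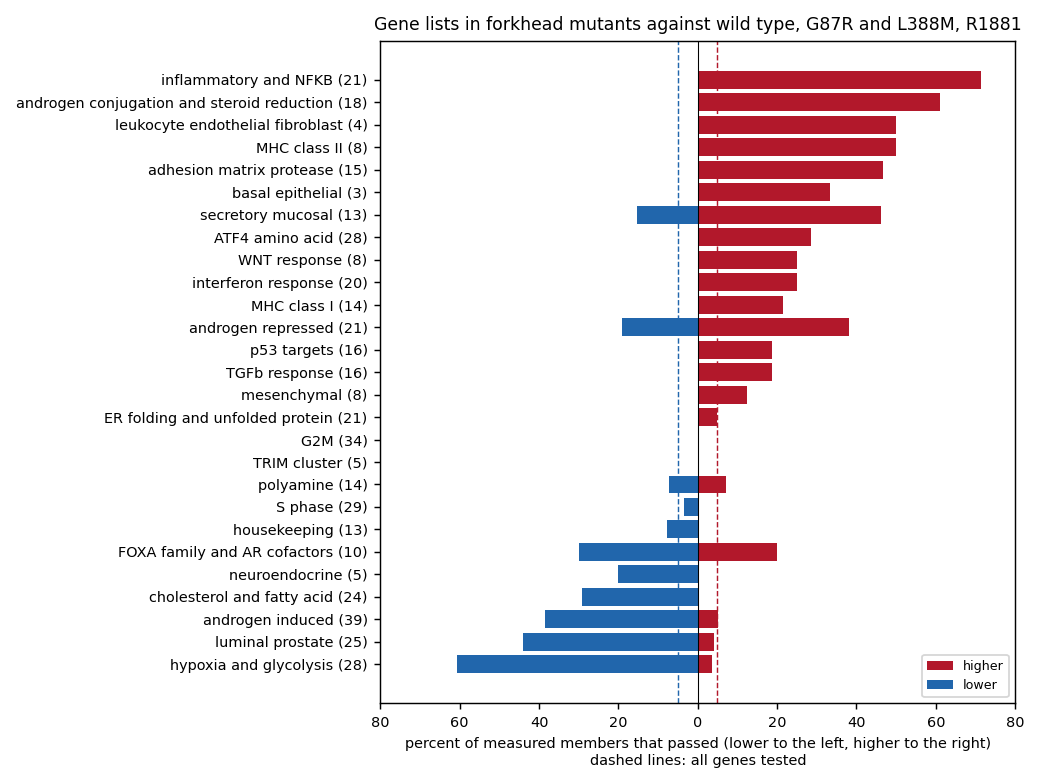
Percent of the measured members of each gene list called higher (bars to the right) or lower (bars to the left) in the forkhead mutants with R1881. Dashed lines mark the shares of all genes tested. Androgen conjugation and inflammatory genes reach 61.1% and 71.4% to the right, and hypoxia and glycolysis genes 60.7% to the left.

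Of 28 measured hypoxia-response and glycolytic genes, 17 fell (60.7%, against 4.94% of all genes) and 1 rose (3.57%, against 4.86%), with a median of -0.56. COXFA4L2, the current symbol of the hypoxia-induced mitochondrial gene NDUFA4L2, had the largest decrease of the called genes. It read 7.79, 7.47 and 5.66 with D226N, M253K and F266S, against 9.85, 9.79 and 9.21 with WT, G87R and L388M (6.26-fold lower, -2.65 ± 0.49, limma adjusted p = 0.0187). Here F266S, not M253K, was the farthest from the WT set. ANKRD37, a target of hypoxia-inducible factor, read 7.88, 7.93 and 7.56 against 9.17, 9.34 and 8.88, 2.54-fold lower. PFKFB4, which sets the level of the main activator of glycolysis, read 9.08, 8.66 and 8.24 against 10.12, 9.97 and 9.77 (-1.29 ± 0.20). Its relative PFKFB3 read 8.18, 7.96 and 7.21 against 8.86, 9.15 and 8.54, so F266S was again the lowest mutant. That is a difference of -1.07, and another PFKFB3 probe gave -0.58. The glucose transporter SLC2A3 (-1.05) and the growth factor VEGFA (-0.89) fell, as did the glycolytic enzyme ENO2 (-1.15 ± 0.17). ENO2 was the 1 of 5 neuroendocrine genes to pass (20%, against 4.94% of all genes). SLC2A1 (-0.13), GAPDH (-0.19) and LDHA (-0.46) did not pass. The member that rose was ADM, the vasodilator adrenomedullin (0.98, limma adjusted p = 0.0187). The count that fell was 10 without L388M, 6 without F266S, 1 without WT and 1 without G87R, and ANKRD37 passed in all 6 of those fits. COXFA4L2, PFKFB4 and ENO2 lost their call without WT or G87R. PGK1 (-0.48 ± 0.11) was the 1 of 13 housekeeping genes to pass (7.69%) and is itself a glycolytic enzyme. PGK1 and PFKFB3 were still called only without D226N, of the 6 fits with an array left out.

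Of 24 cholesterol and fatty acid genes, 7 fell (29.2%, against 4.94% of all genes), 0 rose and 17 did not pass. The desaturase SCD read 10.60, 10.11 and 10.65 with the forkhead mutants, against 11.14, 11.23 and 11.15 in the WT set (-0.72 ± 0.15, limma adjusted p = 0.0251). Fatty acid synthase FASN fell by 0.61 ± 0.13, its regulator SREBF1 by 0.57 ± 0.13 and the sterol sensor INSIG2 by 0.95 ± 0.20. Of 28 ATF4 and amino acid genes, 8 rose (28.6%, against 4.86% of all genes), 0 fell and 20 did not pass. SLC7A11, the cystine importer, read 6.08, 6.54 and 6.95 against 5.36, 5.15 and 5.05, 2.53-fold higher. Its partner chain SLC3A2 rose by 0.94 ± 0.16, the transcription factor CEBPB by 1.06 ± 0.21 and ATF3 by 0.86 ± 0.22. The lipid count was 2 without M253K, 1 without F266S and 0 without WT, G87R or L388M. The ATF4 count was 4 without L388M, 1 without F266S and 0 without WT or G87R. Of 21 genes of protein folding in the endoplasmic reticulum 1 passed (4.76%, close to the share of all genes), SEL1L, undetected in the WT set and at least 1.08-fold higher, a call kept only without D226N. In polyamine metabolism SMS, spermine synthase, fell by 0.69 ± 0.10, and SLC3A2 was the other of 14 members to pass. The shares were 7.14% higher and 7.14% lower, near the 4.86% and 4.94% of all genes. Neither SMS nor SLC3A2 was called without WT or without G87R.

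Proliferation genes did not separate the classes at this threshold. Of 29 S phase genes 1 fell (3.45%, against 4.94% of all genes), DTL (-0.74 ± 0.17), and of 34 G2/M genes 0 passed, with medians of -0.28 and -0.19. NUSAP1, the G2/M gene with the largest difference, read 8.68, 7.50 and 8.26 against 8.88, 8.69 and 8.70 (limma adjusted p = 0.171), and M253K lay apart below the rest. Among 16 p53 targets 3 rose (18.8%, against 4.86% of all genes). They were TP53I3 (1.07 ± 0.21), BAX (0.51 ± 0.11) and PHLDA3 (0.47 ± 0.10). Among 16 TGF-beta response genes ID1, ID3 and CCN2 rose (18.8%), with ID1 undetected in the WT set and at least 1.3-fold higher, ID3 at 0.65 ± 0.15 and CCN2 at 0.56 ± 0.14. LEF1 and TLE1 rose among 8 WNT genes (25%). Each of these counts was 0 without WT and without G87R. Without D226N there were 6 S phase, 2 G2/M, 6 p53, 4 TGF-beta and 4 WNT calls. The p53 count was 0 in each of the other 5 fits, the S phase count was 1 without M253K and otherwise 0, and the TGF-beta count was 1 without M253K or L388M and 0 without F266S. TRIM48, TRIM51, TRIM49C, TRIM49D1 and TRIM49D2, 5 related genes of the ubiquitin ligase type, had a median of -1.56, but 0 passed. TRIM49D2 read 8.01, 5.19 and 6.97 against 8.64, 8.52 and 8.21 (limma adjusted p = 0.103), so D226N was close to the WT set and M253K more than 3 log2 units below it. All 5 passed in the fit without D226N.

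The 3 mutants did not differ from the WT set by the same amount. The rule for calls used these arrays, so the order is given as a description. In the 497 higher genes the median distance from the mean of the WT set was 0.54 for D226N, 0.84 for M253K and 0.78 for F266S. In the 505 lower genes it was -0.48, -0.63 and -0.60 in the same order. D226N was the lowest mutant in 369 of the 497 higher genes (74.2%, against 34.9% of all genes) and the highest in 322 of the 505 lower genes (63.8%, against 34.8%). M253K was the highest mutant in 291 higher genes (58.6%, against 32.3%). In the WT set L388M was the highest in 253 higher genes (50.9%, against 37.6% of all genes) and the lowest in 244 lower genes (48.3%, against 35.5%). The leading principal component of the 6 arrays held 64.4% of the variance, with scores of 4.82 for D226N, 30.6 for M253K and 18.7 for F266S, against -20 for WT, -19.3 for G87R and -14.8 for L388M. Correlations between arrays over all genes tested were 0.982 to 0.99 within the forkhead mutants and 0.991 to 0.995 within the WT set. Between the classes they were 0.962 to 0.986, a range that overlaps that within the forkhead mutants.

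Arrays of GFP-expressing cells with R1881 were outside the comparison and had 1 array each, so they are described without a test. Hairpin cells had at least 1.5-fold more signal than control-vector cells in 695 of all genes (6.80%) and at least 1.5-fold less in 716 (7.00%). Among the 497 genes higher in the forkhead mutants, 181 (36.4%) were raised and 18 (3.62%) lowered in hairpin over control-vector cells. Among the 505 lower genes, 186 (36.8%) were lowered and 10 (1.98%) raised. PI3 read 9.75 to 12.09 in the forkhead mutants, 7.64 to 9.14 in the WT set, 11.67 in hairpin GFP cells and 5.21 in control-vector GFP cells. HLA-DRA read 10.46 in hairpin and 5.12 in control-vector GFP cells. In both genes the WT set lay between the forkhead mutants and the control vector, and the hairpin cells were at the level of the mutants or above. In the named UGT2B genes the hairpin cells were below the WT set instead. UGT2B28 read 10.99 to 11.26 in the forkhead mutants and 8.12 to 8.49 in the WT set, but 5.78 in hairpin and 6.85 in control-vector GFP cells. MMP10 read 6.41 to 8.89 in the forkhead mutants, against 4.72 in hairpin and 4.65 in control-vector GFP cells. All 3 mutants lay at least 1.5-fold above both GFP arrays in 61 of the 497 higher genes (12.3%) and in 69 of all genes (0.675%). These 61 include AKR1C2, AKR1C4, AGR3, MMP10 and the UGT2B genes named above. KLK3 read 6.68 to 7.31 in the forkhead mutants and 8.16 to 8.60 in the WT set, beside 8.17 in hairpin and 8.66 in control-vector GFP cells, so the mutants lay below both GFP lines. TFF1 showed another order: it read 4.30 to 5.84 in the forkhead mutants and 6.75 to 7.00 in the WT set, beside 4.74 in hairpin and 4.36 in control-vector GFP cells, so here the WT set stood above both GFP lines.

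**Figure D4:**
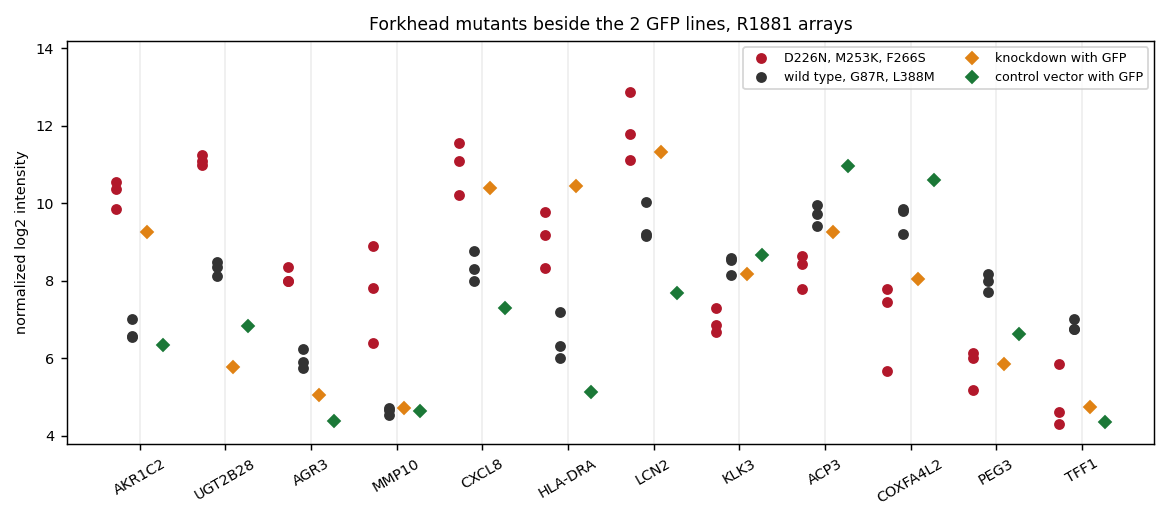
Normalised log2 intensity with R1881 of selected genes in the 3 forkhead mutants, the 3 arrays of the WT set, hairpin GFP cells and control-vector GFP cells (1 array each). UGT2B28 and MMP10 are brighter in the forkhead mutants than in either GFP line, whereas HLA-DRA in the forkhead mutants lies between the WT set and its 10.46 in hairpin GFP cells.

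The androgen response of control-vector GFP cells was read from 1 array with R1881 and 1 with ethanol. Over all genes 495 (4.84%) were at least 1.5-fold higher and 444 (4.34%) at least 1.5-fold lower with R1881. Of the 505 genes lower in the forkhead mutants, 92 (18.2%) were raised and 14 (2.77%) lowered by R1881 in those cells. Of the 497 higher genes, 67 (13.5%) were lowered and 16 (3.22%) raised. These shares describe single arrays and carry no test.

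The same 6 lines were also arrayed in ethanol, and the class difference there had the same sign as with R1881 in 485 of the 497 higher genes (97.6%), in 483 of the 505 lower genes (95.6%) and in 73.5% of all genes. The median difference in ethanol was 0.61 for the higher and -0.39 for the lower genes, against 0.71 and -0.57 with R1881. The genes were called on the R1881 arrays, so a larger median there is partly built in by the choice of genes. These medians therefore do not show that androgen changes the class difference. The ethanol values include the arrays of M253K and G87R, which an earlier analysis of these data had called deviating. A limma test on the R1881 minus ethanol difference of each construct called 0 of 10228 genes (0%), with 339 at an unadjusted p under 0.05 (3.31%) and a smallest adjusted p of 0.688. Its median standard error was 0.193 log2 units. KLK3 in ethanol read 5.79, 4.78 and 5.51 with D226N, M253K and F266S, against 6.75, 6.83 and 6.84 with WT, G87R and L388M, a class difference of -1.45, close to that with R1881. FKBP5 in ethanol read 8.09, 7.97 and 8.13 against 7.99, 8.18 and 8.08, a class difference of -0.02, which differed from that with R1881 by -0.52 ± 0.17 (limma adjusted p = 1). The genes with the smallest p in this test were UGT2B17 (1.05 ± 0.16), KRT16P2 (1.76 ± 0.28) and TUBA3E (-0.93 ± 0.15), all at a limma adjusted p of 0.688. UGT2B17 in ethanol read 12.40, 11.68 and 12.47 with the forkhead mutants, against 10.95, 11.14 and 10.56 in the WT set. Its signal in the WT set was thus more than 0.9 log2 units lower with R1881 in every construct, while the forkhead mutants moved by less than 0.2. TUBA3E, an alpha-tubulin gene with near-identical relatives, read 6.36, 6.17 and 6.20 against 7.10, 7.07 and 6.88 with R1881.

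In this test the R1881 minus ethanol differences of M253K stood apart over all genes, with a spread around the mean response of 0.548 log2 units, against 0.196 to 0.281 in the other 5 constructs compared. UGT2B15 in ethanol shows it, with 7.14 for M253K beside 11.56 for D226N and 11.21 for F266S, against 9.97, 8.72 and 9.31 with WT, G87R and L388M. Without M253K the test called 1 gene, TARP (-1.94 ± 0.17, limma adjusted p = 0.0343), which stood at -1.61 and an adjusted p of 0.688 with it. TARP is an alternate-reading-frame transcript of the T cell receptor gamma locus made in prostate cells, and it was looked at after its value was seen. Without M253K and G87R, left out together because their ethanol arrays had been called deviating, 0 genes were called (smallest limma adjusted p = 0.0832).

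**Figure D5:**
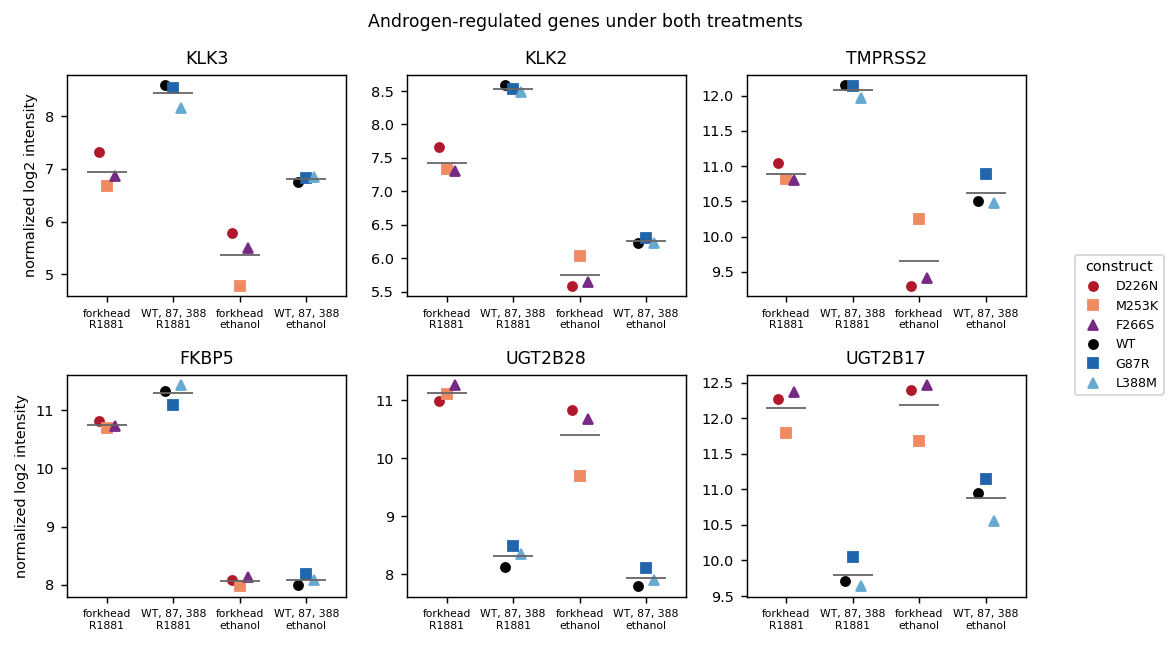
Normalised log2 intensity of selected genes with R1881 and in ethanol, 1 point per construct and the class mean as a grey bar, with the forkhead mutants left of the WT set in each treatment. KLK3 is lower in the forkhead mutants under both treatments, and FKBP5 differs by -0.54 with R1881 and by -0.02 in ethanol.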

How the data were processed

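Total RNA from LNCaP lines was measured on 18 Illumina bead arrays (9 constructs, R1881 or ethanol), of which 6 with R1881 form the comparison. Per the file headers, the authors deposited for every array the intensity of 47303 probes and a detection p-value beside each. The submitters' processing notes list GenomeStudio without a version. Intensity went no lower than 68.4 and so still held its background. Processed intensity was also deposited by the authors (median 5.2, minimum -15.4), and how it was made is not given in the sources used here. No slide or scan date was at hand, so no batch was tested. Columns of other samples numbered 0.

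Intensity was background-corrected with limma 3.58.1 in R 4.3.3 (neqc, offset 16), quantile normalised over 18 arrays and put on a log2 scale. Probes with detection p under 0.01 on at least 3 of the 6 arrays were kept (16802). Genes undetected in the WT set were thus kept through the forkhead mutants alone. The list shares that count them as higher are partly set by this filter. The annotation paired 30102 of all probes with 1 gene, 8 with several and 17193 with no gene. Symbols were brought up to date from a gene table for 99.87% of named probes. The brightest kept probe stood for each of 10228 genes. Classes were compared with lmFit and eBayes (3 arrays against 3, 4 residual degrees of freedom, 2-sided, Benjamini-Hochberg threshold 0.05), tested on simulated data. The treatment difference was fitted on R1881 minus ethanol per construct. No arrays held identical values.

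Named genes were the 12 largest called increases and decreases, FOXA1 and androgen targets, up to 4 called members of each of 27 gene lists (otherwise the member with the largest difference), the 5 with the widest range and the 3 with the smallest p for the treatment difference. Members named outside this rule were chosen after their values were seen. The constructs and lists were chosen with earlier results of these data known. Alternatives changed the background, normalization, filter, probe choice, prior and arrays fitted.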

Additional observations from a re-analysis of the deposited data

How the results depend on the processing

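The 1002 calls and their split (497 higher, 505 lower) were within 1.5 times with normalization over the 6 arrays alone, median scaling, no background subtraction, another filter (at least 2 of 18 arrays, or all 6), the mean of a gene's probes, and an intensity trend with a robust prior. The deposited processed values, floored at 16, gave 612 calls (271 higher, 341 lower), and no filter on dim probes gave 599 among 20040 genes (269 higher, 330 lower). A fit over 12 arrays with construct as a random block gave 568 (272 and 296), and one over all 18 arrays in groups 551 (259 and 292). Leaving out 1 array gave 62 to 1499 calls, 40 to 757 higher and 22 to 742 lower, the fewest without WT and the most without D226N. The 132 called genes of the lists became 75 with the processed values and 78 with no filter, and 18 to 178 with 1 array left out. Of the 1002 genes, those tested kept their direction in each setting, except 1 gene with the processed values and 1 under the filter on all 6 arrays. The cause of these changes was not tested. For the treatment difference, 0 genes were called in each setting except without M253K (1 gene). No paired analysis was possible because, within R1881, each construct has 1 array and the labels give no replicate numbers. The treatment difference was itself paired by construct. The number of arrays limits the precision, and genes near background are the least certain.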
